A study of Mus musculus with 2 samples.

Results

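The antioxidant and reactive oxygen genes of MIN6 cells were examined in 2 arrays, one from cells transduced with a lentivirus carrying FTO and one from cells transduced with the empty vector. The set holds 36 genes that were chosen by function: superoxide dismutases, catalase, glutathione peroxidases, peroxiredoxins, the thioredoxin system, glutathione synthesis, the NRF2 regulators with their inducible enzymes, and oxidant sources. Their members were found by matching the accession of each probe to NCBI gene symbols, which gave 47 probes of all 36 genes, out of 20653 genes named on the array. MIN6 is an insulinoma line from a transgenic C57Bl/6 mouse that secretes insulin in response to glucose, and it was used at passages 15 to 20. The FTO array, named by its label, holds RNA of cells that received PLVX-IRES-ZsGreen-mFTO, and the LVX array holds RNA of cells that received PLVX-IRES-ZsGreen. Both groups thus carry the vector with its ZsGreen marker, and green fluorescence was checked 48 h after transduction. Both were grown with β-mercaptoethanol, a reducing agent. The promoter of the vector is not given in the sources used here, and the cells were a transduced population. There was 1 array per condition, so the differences could not be set against a spread between cultures, and no test was made.

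Superoxide is formed by the respiratory chain and by NADPH oxidases, and superoxide dismutases turn it into hydrogen peroxide. Catalase breaks the peroxide down directly, and glutathione peroxidases and peroxiredoxins reduce it with electrons that reach them from NADPH, mostly through glutathione or thioredoxin. Oxidants release the transcription factor NRF2 (Nfe2l2) from its inhibitor KEAP1, and NRF2 then induces many of these enzymes. Pancreatic beta cells are known for low catalase and glutathione peroxidase activity. The study measured reactive oxygen species by fluorescence in cells overexpressing FTO, and the arrays allow the transcripts of the enzymes to be compared between the same kinds of cells.

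NRF2 binds antioxidant response elements, whose core was searched here as TGACNNNGC on both strands. The windows were the RefSeq promoters of the mouse assembly GRCm38.p6, from 250 bases before to 50 bases after each start. Of the 36 genes, 31 have a window in the table, and 8 of these (25.8%) hold the core: G6pdx, Gclm, Nfe2l2, Prdx1, Sod1, Srxn1, Txnrd1 and Ucp2. Over all genes with a window the share was 14.0%, and over all 32851 windows it was 12.4%. The stricter form TGACTCAGC, which is contained in the first, was found in Prdx1 alone among the 31 members with a window (3.23%). It was found in 0.503% of all genes with a window and in 0.454% of all windows. A match is a description of letters in the window. The promoters of 4 genes of the NRF2 system are shown because each holds 1 match, with the match in capitals, 5′ to 3′ on the strand of the gene.
Prdx1, plus strand, chr4:116685349-116685648: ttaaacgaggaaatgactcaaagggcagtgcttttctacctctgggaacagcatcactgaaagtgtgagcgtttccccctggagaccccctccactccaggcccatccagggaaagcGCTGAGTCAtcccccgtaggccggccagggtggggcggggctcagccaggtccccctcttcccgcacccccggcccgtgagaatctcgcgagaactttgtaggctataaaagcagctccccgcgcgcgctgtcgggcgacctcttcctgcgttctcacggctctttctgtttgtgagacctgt
Gclm, plus strand, chr3:122245307-122245606: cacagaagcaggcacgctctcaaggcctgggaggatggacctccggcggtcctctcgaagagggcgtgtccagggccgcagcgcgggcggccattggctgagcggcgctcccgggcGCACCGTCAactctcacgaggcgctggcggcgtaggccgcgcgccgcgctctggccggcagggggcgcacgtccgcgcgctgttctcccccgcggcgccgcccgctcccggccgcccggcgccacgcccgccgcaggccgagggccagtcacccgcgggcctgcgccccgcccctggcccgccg
Txnrd1, plus strand, chr10:82858956-82859255: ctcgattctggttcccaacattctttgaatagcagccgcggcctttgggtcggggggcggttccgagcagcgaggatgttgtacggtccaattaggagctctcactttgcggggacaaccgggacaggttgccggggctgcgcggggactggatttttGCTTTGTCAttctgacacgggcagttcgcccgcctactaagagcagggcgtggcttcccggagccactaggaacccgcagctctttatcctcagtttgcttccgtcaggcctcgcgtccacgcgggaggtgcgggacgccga
Nfe2l2, minus strand, chr2:75704614-75704913: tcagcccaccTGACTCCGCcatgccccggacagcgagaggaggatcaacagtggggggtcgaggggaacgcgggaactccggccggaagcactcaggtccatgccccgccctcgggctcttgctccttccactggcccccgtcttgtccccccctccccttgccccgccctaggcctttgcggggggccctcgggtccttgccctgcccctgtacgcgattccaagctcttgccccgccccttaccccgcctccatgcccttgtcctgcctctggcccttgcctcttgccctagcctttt
The match begins 133 bases before the start in Prdx1, 134 in Gclm, 92 in Txnrd1 and 240 in Nfe2l2. In Prdx1, Gclm and Txnrd1 it lies on the opposite strand, so the capitals show its reverse complement.

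The FTO array was brighter, with a median intensity of 292 in the units of the scanner software, against 237 for the LVX array. All differences are therefore given on the log2 scale as FTO minus LVX after quantile normalization, with the brightest probe standing for a gene. Each difference is set beside the spot error, which combines the error estimates that the scanner software gave for both spots. The spot error was nearly the same, 0.20, for all bright members and larger for the dimmest, with 0.60 for Gpx8. For bright members it is thus close to a common cutoff and is no spread measured for each gene. Fto, the overexpressed gene, had signals of 7301 and 5179, and its difference was 0.06 with a spot error of 0.20. The sequence of this probe was not analysed here, so whether it lies in the part of Fto carried by the vector is not known here, and the names of the arrays stand for their labels only. All 12 beta cell markers were well above background on both arrays, but so were all 4 alpha cell markers, the PP cell marker Ppy and all 6 acinar markers. The same held for 1 of 2 delta cell, 1 of 2 duct, 3 of 4 fibroblast, 2 of 3 endothelial and 2 of 3 immune markers. Gcg, the alpha cell hormone, had signals of 257411 on the FTO array and 243558 on the LVX array. In 6 adjoining blocks of the FTO array, rows 229 to 456 and columns 1 to 34, 29.0% of the spots of repeated probes were dimmer than the median of their probe by over 0.5 on the log2 scale, against 1.86% elsewhere. On the LVX array 2 blocks had such a loss. The blocks were picked by the share of low spots among these same probes, so the contrast describes the choice and is no separate test. These areas are called blocks of lost signal below, and members whose spot lies in one are named. The blocks were judged with probes of log2 signal 4.5 to 8, so the share does not describe brighter spots.

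Differences between the arrays were small for most of the antioxidant genes. On the FTO array 15 of the 36 genes were higher and 21 lower, and the median difference was -0.04. Over all 18513 named genes tested 51.6% were higher and 48.3% lower, and the median difference was 0.01. When each array was scaled by its 75th percentile, 14 of the 36 genes (38.9%) were higher beside 38.8% of all named genes, and the median of the members lay 0.01 above that of all genes, whereas members minus all genes was -0.05 after quantile normalization. A gene was tested where 1 array or both showed it well above background, which all 36 genes passed, and for 35 of them the brightest probe did so on both. More than a 2-fold difference was seen in 2 genes, Gpx8 and Nox4, both lower on the FTO array and both dim. Over all named genes 2.68% passed that size in either direction, with 1.09% higher and 1.6% lower. Of these calls 40.4% were thus higher, a share that was 17.1% when each array was scaled by its 75th percentile, where the same 2 members were called. The same 2 genes were the members past 0.5 on the log2 scale, a size passed by 8.9% of all named genes, 3.72% higher and 5.19% lower.

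Most members were bright. The mean log2 signal was over 10 in 31 genes, and in none of these did the difference exceed 0.5 in either direction, where the share over all 9991 named genes of that brightness was 0.721%, with 0.15% higher and 0.571% lower. A 2-fold difference was passed by 0.13% of these genes. Of the 31 members 14 were higher and 17 lower, beside 53.6% and 46.2% of all genes of that brightness. The differences of the 31 genes had an SD of 0.12, against 0.15 for all named genes of that brightness, and they lay between -0.24 and 0.29. For the brightest probe the difference was larger than the spot error in 7 of the 36 genes, which were Cyba, Gpx4, Gpx8, Nox4, Slc7a11, Sod3 and Txn1. The same was seen in 27.8% of all named genes. Among the 31 bright members it was seen in 3, Gpx4, Sod3 and Txn1, beside 13.7% of all named genes of that brightness. For 198 probes printed 10 times with a mean log2 signal over 10, the difference between the arrays varied from spot to spot with a median SD of 0.06. The spot error, with a median of 0.20 for the members, was larger than this SD. A difference within the spot error can therefore exceed the variation between repeated spots.

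**Figure D1:**
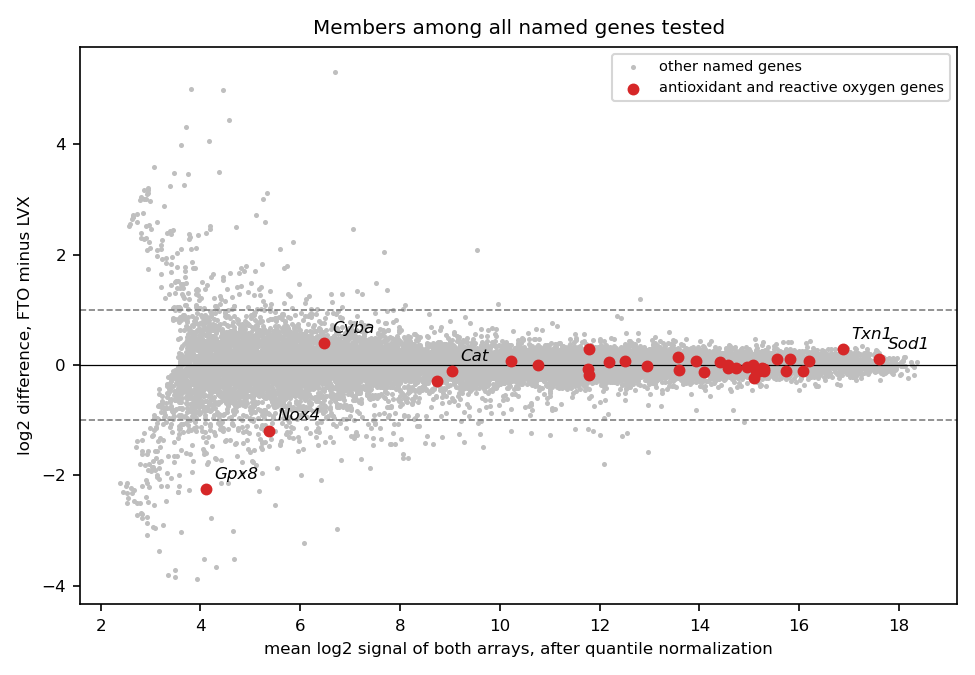
Each point is a named gene, with its mean log2 signal over both arrays on the horizontal axis and its log2 difference (FTO minus LVX) on the vertical axis, and the 36 members are in red. The dashed lines mark a 2-fold difference. Gpx8 and Nox4 lie among the dim genes, where the grey points also spread widely, and the bright members stay between -0.24 and 0.29.

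Superoxide dismutases convert superoxide into hydrogen peroxide in the cytosol (Sod1), in mitochondria (Sod2) and outside the cell (Sod3). Sod1 had a signal of 215926 on the FTO array and 182576 on the LVX array, and its difference was 0.11. The direction of Sod1 was not stable, since it was -0.18 when each array was scaled by its 75th percentile, -0.08 with cyclic loess and -0.05 with normexp background correction. Sod2 had signals of 60731 and 49294 and a difference of -0.10, with its spot in a block of lost signal of the LVX array. Sod3 had signals of 4554 and 2800 and a difference of 0.29 (spot error 0.20), a 1.22-fold higher value on the FTO array. The difference of Sod3 stayed between 0.23 and 0.29 under all alternatives that were run.

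Catalase, which breaks down hydrogen peroxide in peroxisomes, had a pair of probes. The brighter probe had signals of 572 on the FTO array and 488 on the LVX array, and its difference was -0.11. The other had signals of 193 and 151 and a difference of 0.11. Both probes had signals well above background on either array. The differences thus point in opposite directions, each by less than the spot errors of 0.20 and 0.21, and the spot of the brighter probe lies in the blocks of lost signal on the FTO array.

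Glutathione peroxidases reduce peroxides, most of them with glutathione. Gpx1, the abundant cytosolic form, had signals of 44851 on the FTO array and 36059 on the LVX array, with a difference of -0.11. Gpx4, which reduces lipid peroxides in membranes, had signals of 37374 and 32623 and a difference of -0.24 with a spot error of 0.20. The difference of Gpx4 lay between -0.24 and -0.19 under all alternatives. Gpx3, the secreted form, had signals of 3937 and 3099 and a difference of -0.08. Gpx7, a peroxidase of the endoplasmic reticulum, had signals of 1410 and 1029 and a difference of 0.07, with its spot in the blocks of lost signal on the FTO array. The 4 bright glutathione peroxidases of the set thus lay between -0.24 and 0.07.

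Gpx8, the other peroxidase of the endoplasmic reticulum, was dim. Its single probe had a signal of 7.79 on the FTO array, which was not well above background, and of 36.7 on the LVX array, which was. Signals called well above background began at 13.1 on the FTO array, and against that floor, after normalization, Gpx8 was at least 2.90-fold lower there. The bound was 3.77-fold when scaled by the 75th percentile, 3.19-fold after cyclic loess and 1.35-fold after normexp. The spot of Gpx8 lies in the blocks of lost signal on the FTO array, and the part of this loss in the difference was not tested.

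**Figure D2:**
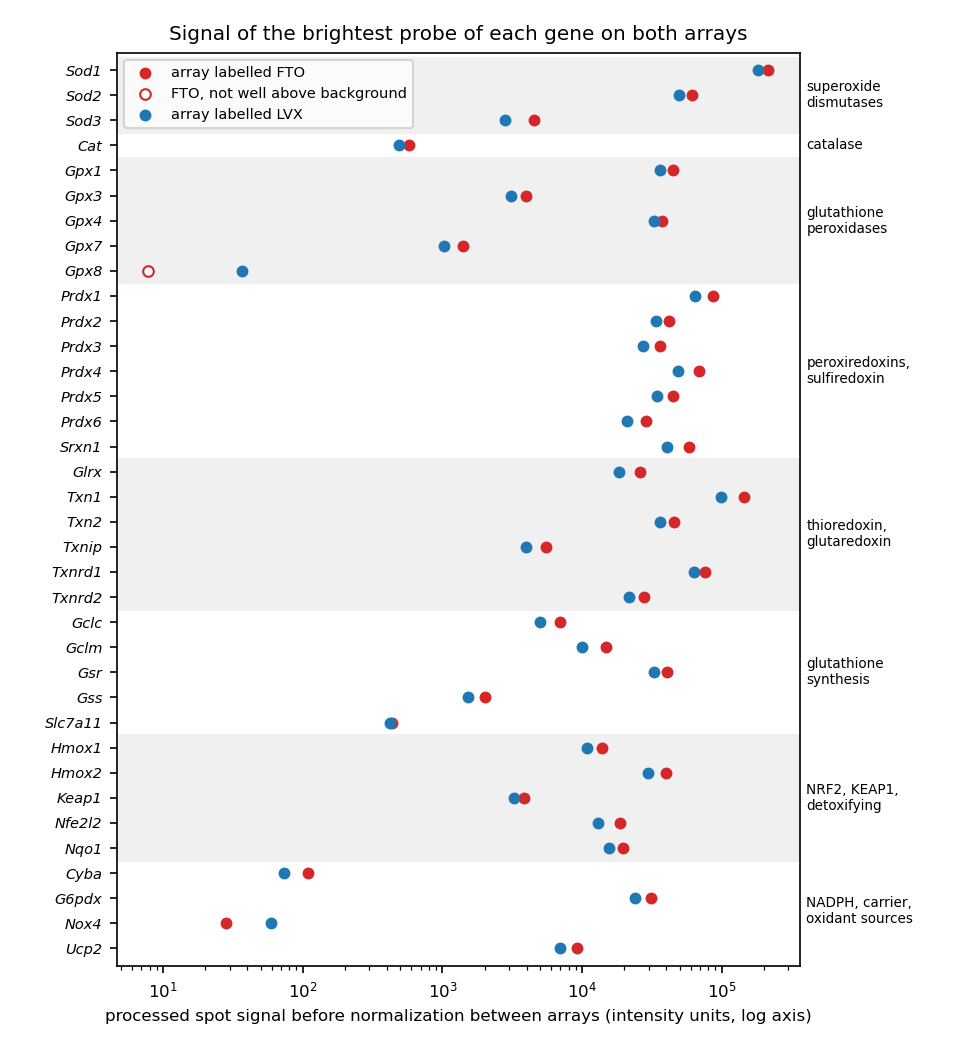
The processed signal of the brightest probe of each gene is drawn on a log axis in intensity units, before normalization between arrays, in red for the FTO array and in blue for the LVX array, with an open circle where the signal was not well above background. The signal was higher on the FTO array in 34 of 36 genes, with a median ratio of 1.30 for the members and 1.29 for all named genes tested. Gpx8 and Nox4 are the exceptions.

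Peroxiredoxins reduce peroxides with thioredoxin. Prdx1, a cytosolic form, had signals of 86767 on the FTO array and 64318 on the LVX array, and a difference of 0.07. Prdx4, the form of the endoplasmic reticulum, had signals of 69210 and 48858 and a difference of 0.11. Prdx2, also cytosolic, had signals of 41809 and 33600 and a difference of -0.11. These differences were within the spot error of 0.20. Prdx5, found in several compartments, had signals of 44799 and 34446 and a difference of -0.05. Prdx6, which uses glutathione in place of thioredoxin, had signals of 28565 and 20940 and a difference of 0.00494. Srxn1, sulfiredoxin, restores overoxidized peroxiredoxins, and it had signals of 57877 and 40366 and a difference of 0.11. None of these brightest probes exceeded the spot error, but a second probe of Prdx1, with signals of 7334 and 4446, did so with a difference of 0.30 and a spot error of 0.20.

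Prdx3, the mitochondrial peroxiredoxin, is printed 10 times on each array and so shows the precision of a bright probe. Its spots lay between 34393 and 37681 on the FTO array, with a median of 36214, and between 26724 and 28915 on the LVX array, with a median of 27231. The ranges of the spots do not overlap before normalization. On each array 2 of the spots lie in the blocks of lost signal. On the FTO array these 2 spots had signals of 37681, the highest of the 10, and 36074. After normalization, with 3 spots of the FTO array left out for an outlier flag, the difference was -0.03. The difference varied between the 7 spots without a flag with an SD of 0.05.

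The signals of catalase and of the glutathione peroxidases stand beside those of the peroxiredoxins without an order of transcript levels being drawn. The signal depends on the probe as well as on the transcript. The 4 probes of Prdx6 show this, with signals of 28565, 16845, 8409 and 29.6 on the FTO array for a single gene. Their differences between the arrays ran from -0.03 to 0.05. The median difference was -0.11 for the 5 glutathione peroxidases of the set, with 1 of 5 higher. It was 0.00494 for the 7 genes of the peroxiredoxin class, Srxn1 included, with 4 of 7 higher, where 51.6% of all named genes were higher. Among the further redox genes described below, the glutathione peroxidases Gpx2, Gpx5 and Gpx6 were all higher, at 0.07, 0.04 and 0.49. Gpx2 was bright, with signals of 37174 and 26001, and the others were dim. The count of higher glutathione peroxidases thus depends on which genes are listed. With 1 array per condition the medians of the classes could not be tested against each other. Among the members of both classes, all values of the brightest probes but those of Gpx4 and Gpx8 lay within the spot error.

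Thioredoxin carries electrons from NADPH to the peroxiredoxins. Txn1, the cytosolic form, had signals of 143666 on the FTO array and 98228 on the LVX array, and a difference of 0.28 (spot error 0.20), a 1.21-fold higher value. The difference was 0.12 when scaled by the 75th percentile, 0.21 after cyclic loess and 0.31 after normexp. The spot of Txn1 lies in the blocks of lost signal on the FTO array, the array on which it was brighter. Its log2 signal of 17.0 there is above the range in which the loss was judged. Txn2, the mitochondrial form, had signals of 45565 and 35815 and a difference of -0.08. Txnrd1, the cytosolic reductase, had signals of 75648 and 62824 and a difference of -0.11. Txnrd2, its mitochondrial counterpart, had signals of 27928 and 21531 and a difference of -0.06. Thus Txn1 was the only gene of the thioredoxin class whose difference exceeded the spot error. Glrx, glutaredoxin, had signals of 25757 and 18333 and a difference of 0.05. Txnip, which binds thioredoxin and is strongly induced by glucose in beta cells, had signals of 5519 and 3951 and a difference of 0.06, and its second probe had a difference of -0.05.

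Glutathione is built by glutamate-cysteine ligase and glutathione synthetase. Gclc, the catalytic subunit of the ligase, had signals of 6952 on the FTO array and 4966 on the LVX array, and a difference of 0.07. Gclm, its modifier subunit, had signals of 14905 and 9906 and a difference of 0.14. Gss, the synthetase, had signals of 2001 and 1529 and a difference of -0.00887. All 3 lay within the spot error of 0.20. Gsr, which recycles oxidized glutathione, had signals of 40416 and 32442 and a difference of -0.11, and a second probe gave -0.06. The brighter probe of Gsr lies in the blocks of lost signal on the FTO array, and the second lies in one on the LVX array. Slc7a11, the cystine carrier that supplies cysteine for glutathione, had signals of 434 and 418 and a difference of -0.29 with a spot error of 0.20. It was lower on the FTO array under all alternatives, between -0.37 and -0.22. Slc3a2, the partner chain of this carrier, had signals of 64352 and 58161 and a difference of -0.24.

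Nfe2l2, which encodes NRF2, had signals of 18623 on the FTO array and 13088 on the LVX array, and a difference of 0.07. Keap1, its inhibitor, had signals of 3819 and 3246 and a difference of -0.19. Nqo1, a quinone reductase and a classical NRF2 target, had signals of 19591 and 15700 and a difference of -0.12. None of the 3 exceeded the spot error. Hmox1, the inducible heme oxygenase, had signals of 13928 and 10911 and a difference of -0.09 for its brighter probe, and signals of 2701 and 2503 and a difference of -0.29 (spot error 0.20) for the other. The brighter probe lies in the blocks of lost signal on the FTO array and the other in a block of lost signal on the LVX array. Hmox2, the constitutive form, had signals of 39870 and 29584 and a difference of 0.00212, and its second probe gave -0.10. The 8 members that hold the antioxidant response core in their promoter had differences between -0.11 and 0.14, with a median of 0.07 and 5 of 8 higher, and the 23 members with a window without it had a median of -0.08 with 7 of 23 higher, where 51.6% of all named genes were higher. All 8 differences lay within the spot error of 0.20. One of the 5 is Sod1, whose difference was below 0 under the 3 other scalings and corrections given above. G6pdx, one of the lower genes, also changed sign, with values from -0.05 to 0.0056. The window reaches only 250 bases before the start, and Nqo1 is not among the 8. Lacking the core in this window therefore does not mark a gene as no NRF2 target. No spot of the 8 lies in the blocks of lost signal on the FTO array, and all 8 have a mean log2 signal over 10. The 7 members whose spot lies in those blocks, with a median of -0.11, are all outside the 8, as are the dim members. Position on the array and brightness therefore cannot be told apart from the core in this contrast. With the 75th percentile scaling 38.8% of all named genes were higher. The groups were not tested against each other.

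G6pdx, which makes NADPH in the pentose phosphate pathway, had signals of 31102 on the FTO array and 23789 on the LVX array, and a difference of -0.05. Ucp2, a mitochondrial carrier studied in beta cells for its link to oxidants and insulin secretion, had signals of 9155 and 6960 and a difference of -0.03. Both lay within the spot error. Cyba encodes p22phox, the membrane subunit that NADPH oxidases share. Its brighter probe had signals of 109 and 72.9 and a difference of 0.40 with a spot error of 0.22, and the other had signals of 21.0 and 16.7 and a difference of 0.30 with a spot error of 0.37. The difference of the brighter probe was 0.15 when scaled by the 75th percentile and 0.12 after normexp, and its spot lies in a block of lost signal of the LVX array. The spot of the dimmer probe lies in none.

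Nox4, an NADPH oxidase that releases hydrogen peroxide, was dim, and its probes disagreed. One had signals of 28.1 on the FTO array and 59.6 on the LVX array, both well above background, and a difference of -1.19 (spot error 0.26), a 2.29-fold lower value. The other had a signal of 18.2 on the FTO array and of 10.04 on the LVX array, where it was not well above background. Its difference was 0.85 with a spot error of 0.44. Against the floor of 10.05 on the LVX array it was 1.80-fold higher on the FTO array, and 1.12-fold higher after normexp. The spots of both lie in the blocks of lost signal on the FTO array, whose part in either difference was not tested. The mean of both probes was -0.17, and normexp gave -0.54 for the first.

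**Figure D3:**
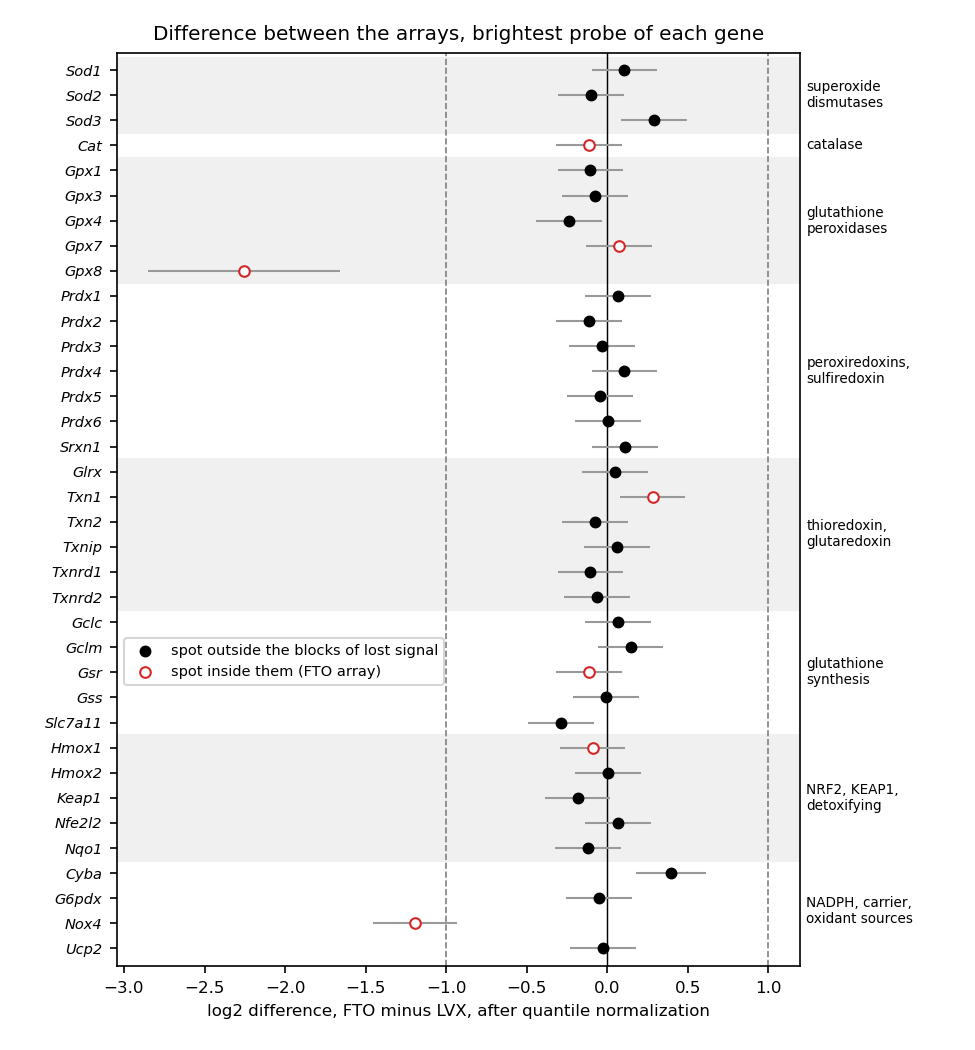
The log2 difference (FTO minus LVX) of the brightest probe of each gene is drawn after quantile normalization, with the spot error as a bar and genes grouped by class. The dashed lines mark a 2-fold difference, and open red circles are genes whose spot lies in the blocks of lost signal on the FTO array. Gpx8 at -2.26 and Nox4 at -1.19 are the values beyond the lines, and both are open circles.

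A total of 9 members had several probes, 20 probes in all. The probes of a gene had differences of the same sign in 4 genes (Cyba, Gsr, Hmox1 and Prdx1) and of mixed sign in 5 (Cat, Hmox2, Nox4, Prdx6 and Txnip). Prdx1 had the widest gap between bright probes, with 0.07 and 0.30. The blocks of lost signal on the FTO array hold the single spot used for 7 of the 36 genes, with a median difference of -0.11 and 2 of 7 higher. The other 29 genes had a median of -0.03 with 13 of 29 higher. They include Cyba and Sod2, whose spots lie in blocks of lost signal of the LVX array. Of all named genes 51.6% were higher, and 49.9% with the blocks of both arrays left out. The share of all named genes inside the blocks was not computed, so the counts cannot be read as a trait of the members.

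**Figure D4:**
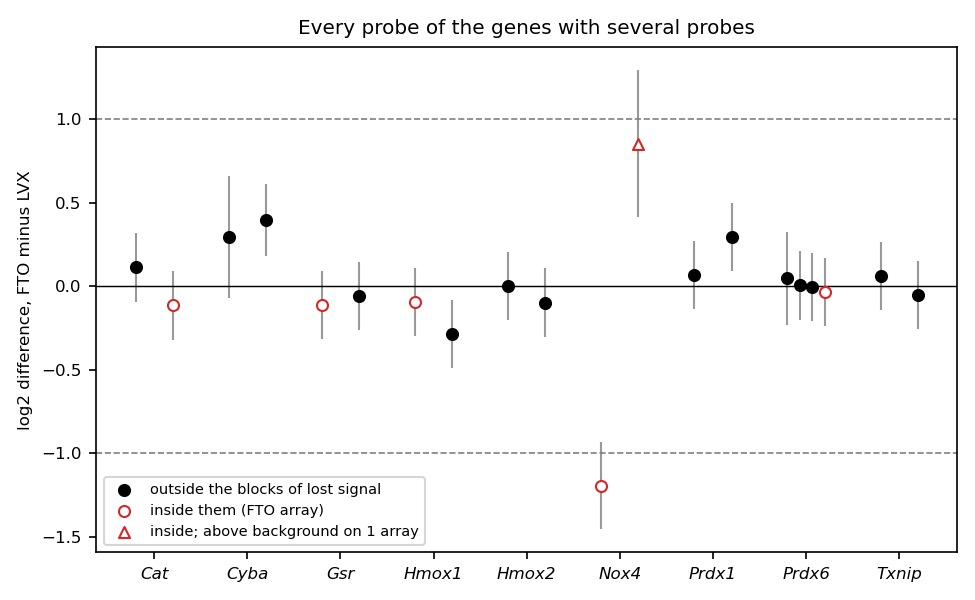
Every probe of the 9 genes with several probes is drawn with its log2 difference (FTO minus LVX) and its spot error as a bar. Open red symbols lie in the blocks of lost signal on the FTO array, and the triangle is well above background on 1 array. The probes of Nox4 lie at -1.19 and 0.85, on opposite sides of 0, while no other gene exceeds 0.40 in either direction.

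Further redox genes were taken from a list of 83, with 80 on the array and 78 well above background on at least 1 array. None differed by more than 2-fold, where the share over all named genes was 2.68%. The median difference was 0.02, with 43 higher and 35 lower. Ggt1, which breaks down extracellular glutathione, was the only gene over 0.5, with a difference of 0.68 and a spot error of 0.45. It was 1.61-fold higher on the FTO array, with a signal of 10.5 on the LVX array that was not well above background. Among genes well above background on both arrays, the highest values were 0.49 for Gpx6 (its spot in the blocks of lost signal), 0.32 for Maoa, 0.32 for Cybb, 0.29 for Txnl1 and 0.29 for Gsta4. Maoa, a mitochondrial amine oxidase that yields hydrogen peroxide, had signals of 1713 and 1050, and Cybb, the catalytic subunit of the phagocyte oxidase, had signals of 18.6 and 14.8 and a spot error of 0.37. With the same filter on both arrays the lowest were -0.36 for Sesn2, -0.30 for Mgst3, -0.24 for Slc3a2, -0.24 for Gsto1 and -0.22 for Nox1. Of these, Gsto1 and Nox1 lie in the blocks of lost signal. Duoxa2 (-0.40) and Ncf1 (-0.31) were well above background on the LVX array alone, with spot errors of 0.41 and 0.46. Sesn2, a stress-induced sestrin, had signals of 2089 on the FTO array and 2025 on the LVX array. By class, 12 of 16 glutathione-using enzymes were higher, 9 of 17 further thioredoxin-fold and methionine sulfoxide enzymes, 7 of 9 genes of NADPH supply, 8 of 21 NRF2 regulators and targets, and 7 of 15 oxidase genes, where 51.6% of all named genes were higher. The class of NADPH supply also held Slc3a2, the partner chain of the cystine carrier, which was among its lower genes.

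**Figure D5:**
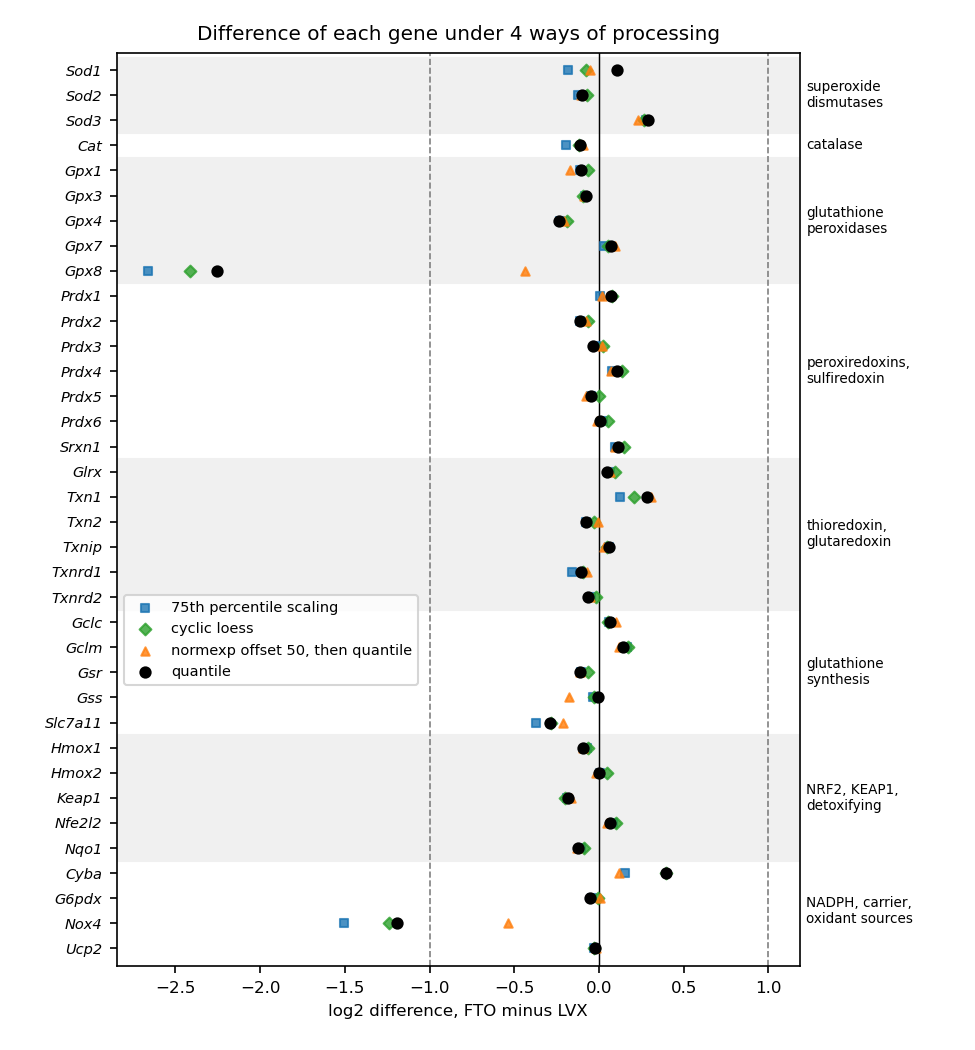
The log2 difference (FTO minus LVX) of each gene is drawn under quantile normalization (black), scaling by the 75th percentile (blue squares), cyclic loess (green diamonds) and normexp background correction (orange triangles). The widest spans are those of Gpx8, from -2.66 to -0.43, and Nox4, from -1.51 to -0.54, followed by Sod1, from -0.18 to 0.11, and Cyba, from 0.12 to 0.40.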

How the data were processed

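RNA from MIN6 cells was labeled with Cy3 and hybridized to Agilent mouse arrays of a single color, 1 per condition. In the deposited tables each spot has an intensity from Agilent Feature Extraction 11.0.1.1 (the version is from the submitters' processing notes), with background and spatial trend removed and no normalization between arrays, together with its error and the median intensities of the spot and its background. The authors also deposited a table of log2 values for 33870 probes. Its quantile normalization was done in GeneSpring per the methods, and its values lie 0.0032 on average from the values computed here. They were used as an alternative.

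Control spots were left out, as were spots with an outlier flag (148 of FTO, 141 of LVX), the log2 signals of a probe were averaged, and quantile normalization of the 39417 probes used limma (version 3.58.1, under R 4.3.3). Values were then joined and summarized with pandas 2.3.3 and numpy 2.4.6 under Python 3.11.15 and drawn with matplotlib 3.10.9. Probes entered the comparison when 1 array or both showed them well above background (for repeated probes, in 50% of spots). The highest mean signal chose the probe of a gene, and calls needed a 2-fold difference. The accession named 27224 probes through NCBI gene tables of GRCm38.p6. The array design lists an older build, so probes have no coordinates here. The blocks are 35 equal parts of the array, judged with 79 repeated probes of log2 signal 4.5 to 8, and one counts as having lost signal where 15% of their spots are low. Precision is limited by the number of arrays, and cross-hybridization could not be checked without probe sequences. Only the quantile normalization and the 2-fold call were tested on simulated data, with changes larger than 2-fold. Blocks of lost signal and differences as small as those of most members were not simulated.

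The genes, the lists, the blocks and the alternatives were chosen with earlier results of these data known. All 36 members are named, and of the 83 further redox genes those past 2-fold and the 5 highest and 5 lowest with a signal well above background on the FTO and the LVX array. Ggt1, Duoxa2 and Ncf1 were named after their values were seen. The alternatives were other normalizations, normexp with an offset of 50, the processed table, other filters on dim or outlier spots, the blocks left out, and other rules for the probe of a gene.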

Additional observations from a re-analysis of the deposited data

How the results depend on the processing

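The sign of the difference stayed the same in 30 of 36 members under all 10 alternatives in which a gene had a value, and it changed in Cat, G6pdx, Hmox2, Prdx3, Prdx6 and Sod1, whose values were all under 0.2 in size. For the 27 members with 1 probe, the rules for the probe and the filters on dim probes could not change a value. The processed table lies 0.0032 on average from the main values. Several alternatives were therefore no separate check of the sign. The 30 include Nox4 and Txnip, whose second probes have the other sign. The count of members higher on the FTO array was 14 or 15 in every setting, and the median of the members lay between -0.05 and -0.0080. The number of members was not constant. Without the blocks of lost signal 14 of 29 members (48.3%) were higher, beside 49.9% of all named genes. In the quantile setting these shares were 41.7% and 51.6%. The values over all genes did move, from 51.6% higher and a median of 0.01 to 38.8% higher and a median of -0.06 with the 75th percentile scaling, so that the shares of members and of all genes that were higher were then 38.9% and 38.8%. The median of the superoxide dismutases was 0.11 and turned to -0.12 under 75th percentile scaling, -0.0681 under cyclic loess and -0.0545 under normexp, as Sod1 changed sign. The median of the further redox genes was 0.02 and became -0.0239 with the 75th percentile scaling. The 2 members past 2-fold, which were also the 2 past 0.5, became 1 past 2-fold and 1 past 0.5 when both arrays had to be well above background and also with the mean over probes, 0 past 2-fold and 1 past 0.5 with normexp, and 0 past either without the blocks of lost signal, where 29 members remain and Gpx8 and Nox4 have no spot. The brighter probe of Cat lies in these blocks, and the other gave 0.10 there. Over all named genes the 497 past 2-fold became 731 with the 75th percentile scaling, of which 17.1% were higher against 40.4% in the quantile setting, and 55 with normexp, 218 when both arrays had to pass the background filter, 263 without the blocks and 891 with no filter. Low signal limits Gpx8, Nox4 and Cyba, and 1 array per condition limits all values. No paired analysis was possible because each condition has 1 array.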
